A study of Homo sapiens with 8 samples.

Results

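The interferon-stimulated genes are the genes that cells switch on when interferons signal that a virus or other intruder is near. A set of 38 of them was followed in HCT116 cells, an established human colorectal cancer line, by finding their symbols among the 59641 genes of an RNA-seq table. All 38 symbols had a row. The hormone hFGF19 is the human form of fibroblast growth factor 19. HCT116 cells cultured with it for 72 hours at 100 ng/ml (n = 4) were compared with control HCT116 cells that received no hFGF19 (n = 4). How long the controls were cultured is not given in the labels. The title of the series links FGF19 to colorectal cancer spread through FGFR4, ERK and NF-kB, so the comparison bears on which gene programmes differed after the hormone.

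Type I and type III interferons act through paired receptors and the kinases JAK1 and TYK2 to form ISGF3, a complex that holds STAT2 and IRF9 and binds a promoter element called the ISRE. Interferon gamma acts through JAK1 and JAK2 and leads to the use of another element, the GAS. The genes so induced include sensors of viral RNA, the ubiquitin-like modifier ISG15 with its enzymes, and proteins that block viral entry, translation or replication, and epithelial cells can hold several of them at a constant low level without added interferon.

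No interferon-stimulated gene was called changed by hFGF19. Of the 38 genes, 29 averaged 1 FPKM or more over the 8 libraries (FPKM relates a gene's reads to its length and to the reads of the library) and were tested with limma on log2(FPKM + 1). None of these 29 passed an adjusted p of 0.05, and the adjusted p was 0.9998 for each of them. Over all 14100 genes tested, 15 passed, which is 0.106%, with 14 higher and 1 lower in hFGF19 cells. Before adjustment, 1 of the 29, the viral entry inhibitor gene IFITM3, was below 0.05 (3.45%, against 4.23% of all genes tested). A fit to the read numbers with limma voom also called none of the 29, against 0.106% of all genes, with 1 below 0.05 before adjustment, against 3.8% of all genes. Among the 29, the log2 change (hFGF19 minus control) was positive in 13 and negative in 16. Its median was -0.017, beside -0.013 over all genes tested, and its range was -0.26 for MX1 to 0.17 for GBP2. The 95% interval of the change stayed within 0.5 of 0 on this log2 scale in 27 of the 29, and within 1 in all 29. The voom fit put the interval within 0.5 in 23 of the 29 and within 1 in all 29.

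The promoters show how far these genes carry the element that ISGF3 and IRF proteins bind. RefSeq windows of 300 bases (build GRCh38.p14), from 250 bases before to 50 after the gene start, were matched for 29 of the 38 genes. The ISRE core searched was GAAANNGAAA, on both strands and with overlapping matches counted. It was present in 18 of the 29 windows (62.1%), against 1255 of all 35116 RefSeq promoter windows (3.57%). The GAS motif TTCNNNGAA, on both strands, was in 7 of the 29 windows (24.1%) and in 2689 of all windows (7.66%). The windows below are shown because they belong to 6 of the most abundant genes of the set and to 3 with low estimates, MX1, IFI6 and IFIT3. The core is in capitals, and each window is printed 5′ to 3′ on the strand that carries the core, which for IFI27 and IFIT3 is opposite to the gene:
IFITM3, chr11:320876-320905, minus strand: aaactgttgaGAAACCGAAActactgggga
ISG15, chr1:1013380-1013409, plus strand: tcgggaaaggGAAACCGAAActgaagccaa
PARP14, chr3:122680800-122680829, plus strand: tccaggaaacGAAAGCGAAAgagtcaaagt
IFI27, chr14:94110618-94110647, minus strand: cattttccagGAAACCGAAActgcagacat
OAS3, chr12:112938452-112938481, plus strand: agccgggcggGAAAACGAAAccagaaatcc
DTX3L, chr3:122564322-122564351, plus strand: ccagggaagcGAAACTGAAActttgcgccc
IFI6, chr1:27672329-27672358, minus strand: ggagagagggGAAAATGAAActctgcagag
IFIT3, chr10:89327865-89327894, minus strand: gaggaaactgGAAAGTGAAActaatttaaa
MX1, chr21:41420559-41420588, plus strand: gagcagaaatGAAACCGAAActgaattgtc

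The core GAAACCGAAA occurred in 5 of the 18 promoters (IFITM3, ISG15, IFI27, MX1 and IFIT1), and GAAACTGAAA occurred in 7 (OAS3, DTX3L, IFI44, SAMD9, GBP1, BST2 and IFITM1). There were 33 matches in the 18 windows, 21 of them on the gene's own strand, and 12 windows held at least 2. IFIH1, HERC5 and IFI6 each held 3, those of IFI6 at 156, 115 and 93 bases before its start. In IFI44L the same 30 bases stood in the window at both places where the core was found, 91 bases apart:
IFI44L, chr1:78620274-78620303, plus strand: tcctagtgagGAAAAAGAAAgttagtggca
IFI44L, chr1:78620365-78620394, plus strand: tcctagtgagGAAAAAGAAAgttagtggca
Of the 18 genes with a core, 15 were tested, and their median log2 change was 0.0059, with 8 positive and 7 negative. Of the 11 genes whose window held none, 8 were tested, with a median of -0.053, 2 positive and 6 negative. A match of letters is not a bound site, and windows without one say nothing on the factors.

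**Figure D1:**
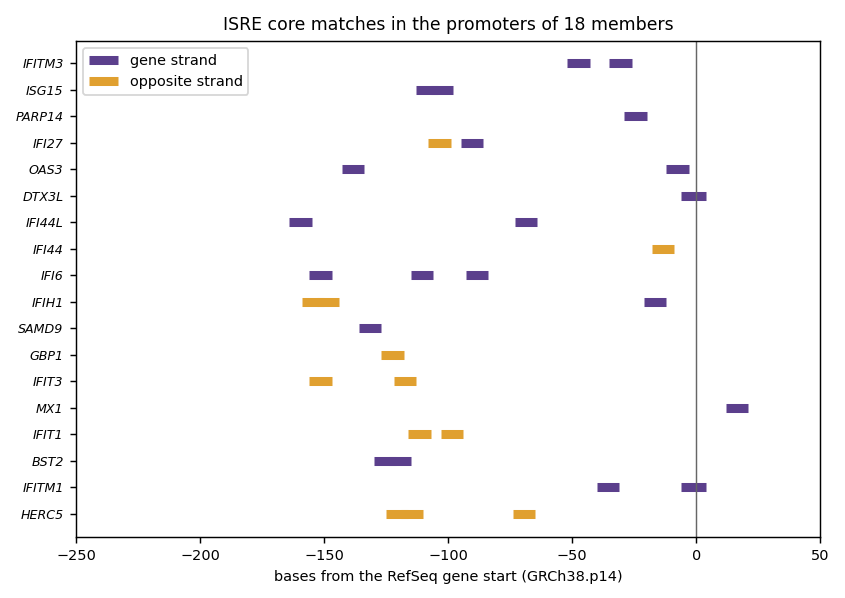
Position of each ISRE core match (x axis, bases from the RefSeq gene start; y axis, the 18 genes with a match, highest mean FPKM on top), on the gene's own strand or the opposite one. Matches lie from 164 bases before the start (IFI44L) to 21 bases after it (MX1).

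Levels spanned the whole range from abundant to absent. Of the 38 genes, 4 averaged above 50 FPKM over the 8 libraries (IFITM3, ISG15, PARP14 and IFI27), 7 lay between 10 and 50, 18 between 1 and 10, and 9 below 1. The 29 tested genes had a median of 8.25 FPKM, against 13.6 FPKM for all genes tested. Summed over all 38 genes, the level was 781 ± 34.9 FPKM in hFGF19 cells and 743 ± 43.4 FPKM in controls (SD, n = 4 each). IFITM3 alone made up 31.9% of that sum in hFGF19 cells and 30.3% in controls, and the top 5 genes, with IFITM2 as the fifth, 68.9% and 66.3%. Sums per library were 735, 805, 811 and 775 FPKM in hFGF19 libraries 1 to 4, against 695, 789.8, 767 and 718 FPKM in controls 1 to 4, so the groups overlapped.

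**Figure D2:**
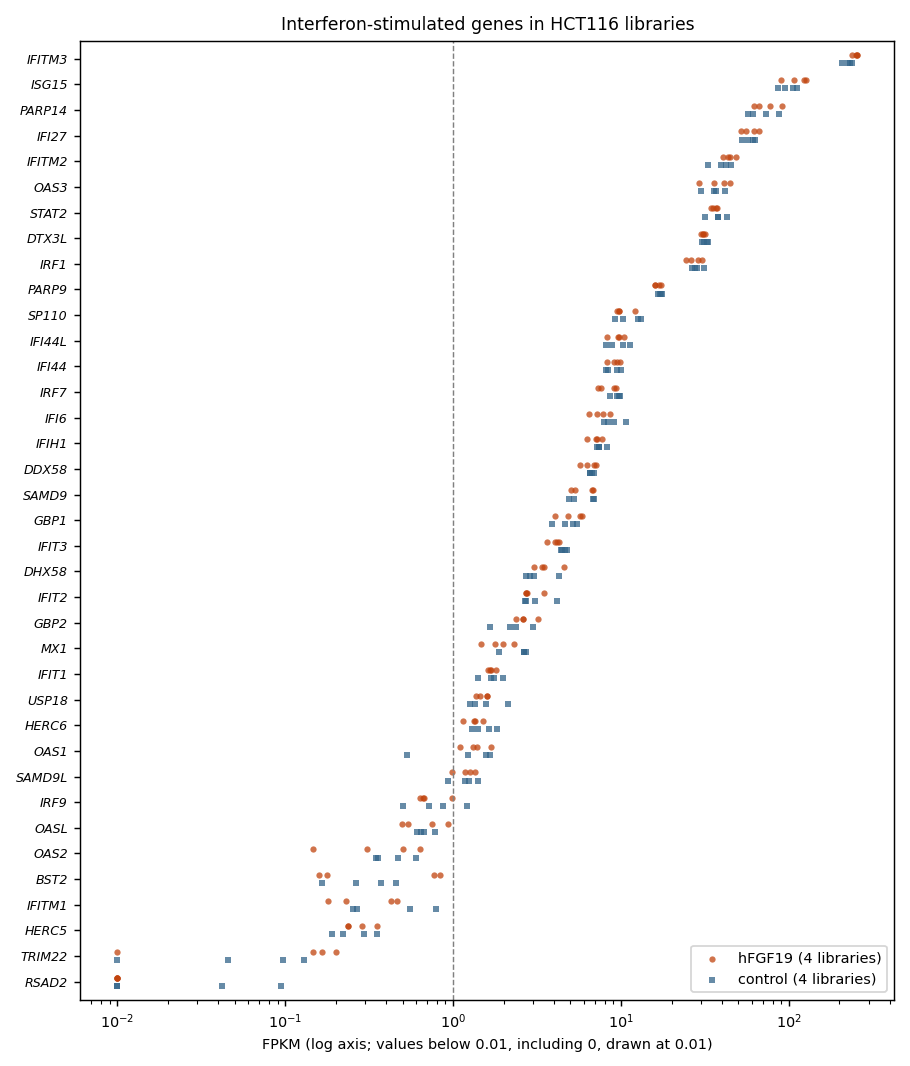
FPKM (x axis, log scale) of 37 interferon-stimulated genes in each of the 4 hFGF19 and 4 control libraries (points); CMPK2, listed at 0 in all 8, is left out, and the dashed line marks the filter of 1 FPKM. For IFIT3 every hFGF19 point lies below every control point, and for each other gene above the line the groups overlap.

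The libraries were of similar size. The FPKM values resolve into whole reads, with the smallest total, 17121190 reads, in hFGF19 library 2 and the largest, 20752753 reads, in hFGF19 library 1. Epithelial markers had a summed level of 2708 to 2898 FPKM in hFGF19 libraries and 2765 to 2967 FPKM in controls. Most of it came from the keratin genes KRT8, KRT19 and KRT18, with KRT8 at 1413 FPKM in hFGF19 cells and 1488 FPKM in controls. EPCAM averaged 26.6 and 27.9 FPKM in hFGF19 cells and controls, CDH1 39.0 and 42.0 FPKM, and CLDN4 57.8 and 54.6 FPKM. The intestinal genes VIL1 and CDX2 averaged below 0.2 FPKM. An adipose type is mentioned in the RNA protocol of the labels, whereas their other fields name HCT116. Of 8 leukocyte markers 2 were above the filter, CD14 and the neural adhesion gene NCAM1. NCAM1 averaged 67.6 FPKM in hFGF19 cells and 75.7 FPKM in controls, and CD14 1.45 and 0.935 FPKM. Neither was called. CD3E was listed at 0, and PTPRC averaged 0.121 FPKM in hFGF19 cells and 0.210 FPKM in controls. Of the 3 plasmacytoid dendritic markers, CLEC4C was listed at 0 in all 8 libraries, LILRA4 had 3 reads in hFGF19 cells and 5 in controls, and IL3RA passed the filter at 4.89 ± 0.276 FPKM in hFGF19 cells and 5.72 ± 0.836 FPKM in controls. Whether the 4 samples of a group were separate cultures is not stated, so each p-value rests on a spread that may be purely technical. In bulk libraries, fewer cells that express a gene and less RNA per cell cannot be told apart.

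Among the transcription factors of the pathway, STAT2, the ISGF3 subunit with the transactivation domain, had 35.2, 36.7, 34.6 and 37.3 FPKM in hFGF19 libraries 1 to 4, against 37.97, 42.8, 37.8 and 31.8 FPKM in controls 1 to 4. Control 2 was the highest and control 4 the lowest of the 8, with all 4 hFGF19 libraries between them. IRF1, a factor induced most strongly by interferon gamma, had 30.3, 24.4, 26.3 and 28.6 FPKM in hFGF19 libraries 1 to 4, against 27.7, 26.6, 28.2 and 30.999 FPKM in controls 1 to 4. Both groups covered much of the same range. IRF7, which drives type I interferon genes once activated, had 7.62, 9.11, 7.25 and 9.39 FPKM in hFGF19 libraries 1 to 4, against 9.76, 8.58, 9.44 and 9.804 FPKM in controls 1 to 4. Its lowest values were in hFGF19 libraries 3 and 1, and hFGF19 libraries 2 and 4 lay among the controls. IRF7 had a log2 change of -0.16 ± 0.091 (SE), with a 95% interval of -0.36 to 0.041 (limma, unadjusted p = 0.108). For STAT2 and IRF1 the log2 changes were -0.056 ± 0.081 and -0.052 ± 0.077. IRF9, the DNA-binding subunit of ISGF3, was listed far lower than its partners, from 49 against 54 reads over the 4 libraries of each group. It averaged 0.736 ± 0.164 FPKM in hFGF19 cells and 0.825 ± 0.296 FPKM in controls, and was not tested. In another annotation release (GENCODE 29) its exons overlap those of a same-strand gene, AL136295.5, at 0.114 FPKM in hFGF19 cells and 0.054 FPKM in controls. How the counting treated reads shared between these genes is not given in the sources used here.

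The cytoplasmic RNA sensors were held at a few FPKM. DDX58, which encodes RIG-I, had 6.28, 7.099, 6.903 and 5.66 FPKM in hFGF19 libraries 1 to 4, against 6.54, 6.57, 6.88 and 6.695 FPKM in controls 1 to 4. The controls lay close together, and the hFGF19 libraries fell on both sides of them. IFIH1, which encodes the long double-stranded RNA sensor MDA5, had 7.73, 7.12, 6.28 and 7.15 FPKM in hFGF19 libraries 1 to 4, against 8.196, 7.21, 7.36 and 7.39 FPKM in controls 1 to 4. It was lower in hFGF19 cells in 4 of 4 pairs of same-numbered libraries, with log2 differences of -0.20 to -0.017, although the groups overlapped. DHX58, whose product LGP2 modulates the other two sensors, had 3.48, 3.04, 3.38 and 4.56 FPKM in hFGF19 libraries 1 to 4, against 3.02, 2.71, 4.27 and 2.87 FPKM in controls 1 to 4. Its highest values were in hFGF19 library 4 and control 3. The log2 changes were -0.040 ± 0.080 for DDX58, -0.083 ± 0.079 for IFIH1 and 0.13 ± 0.14 for DHX58, each with a 95% interval that included 0.

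The modifier ISG15 had the second highest level of the set. ISG15, a ubiquitin-like protein that is joined to other proteins during the interferon response, had 89.8, 126, 124 and 107 FPKM in hFGF19 libraries 1 to 4, against 85.8, 111, 106 and 95.3 FPKM in controls 1 to 4. In both groups libraries 2 and 3 were above libraries 1 and 4, and the groups overlapped. ISG15 averaged 112 ± 16.9 FPKM in hFGF19 cells and 99.7 ± 11.4 FPKM in controls (SD, n = 4 each), a log2 change of 0.16 ± 0.11 with a 95% interval of -0.10 to 0.41 (limma, unadjusted p = 0.199). Leaving out 1 library moved that change to 0.088 without control 1, 0.094 without hFGF19 library 2, 0.10 without hFGF19 library 3 and 0.26 without hFGF19 library 1. With the replicate number as a block, which sets each hFGF19 library against the control of the same number, ISG15 was higher in hFGF19 cells in 4 of 4 pairs and had an unadjusted p of 0.00823 (limma, adjusted p = 0.54). USP18, the protease that removes ISG15 and also damps the type I receptor, had 1.58, 1.59, 1.37 and 1.44 FPKM in hFGF19 libraries 1 to 4, against 1.27, 2.13, 1.34 and 1.56 FPKM in controls 1 to 4. Control 2 was above the other libraries. HERC6, the main ligase for ISG15 in mouse, had 1.35, 1.34, 1.14 and 1.5005 FPKM in hFGF19 libraries 1 to 4, against 1.63, 1.29, 1.81 and 1.41 FPKM in controls 1 to 4. The groups overlapped for both genes, with log2 changes of -0.035 ± 0.13 and -0.12 ± 0.12. HERC5, the human ligase that attaches ISG15, averaged 0.278 ± 0.0549 FPKM in hFGF19 cells and 0.265 ± 0.0733 FPKM in controls, from 46 against 44 reads, and was not tested.

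The OAS enzymes make 2′-5′-linked oligoadenylates that activate RNase L when they meet double-stranded RNA. OAS3 was the abundant one, with 44.4, 35.9, 29.2 and 40.9 FPKM in hFGF19 libraries 1 to 4, against 41.7, 30.05, 35.7 and 36.6 FPKM in controls 1 to 4. Library 1 was the highest of its group in both groups. OAS1 had 1.097, 1.38, 1.67 and 1.32 FPKM in hFGF19 libraries 1 to 4, against 1.23, 1.57, 0.529 and 1.65 FPKM in controls 1 to 4. Control 3 was far below the other libraries at 11 reads, against 26 to 34 reads per hFGF19 library. Their log2 changes were 0.054 ± 0.13 and 0.10 ± 0.18. OAS2 averaged 0.396 ± 0.215 FPKM in hFGF19 cells and 0.443 ± 0.117 FPKM in controls, and the related OASL, which lacks the oligoadenylate activity and binds RIG-I, averaged 0.679 ± 0.203 FPKM in hFGF19 cells and 0.676 ± 0.0754 FPKM in controls, both below the filter.

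Of the IFIT proteins, IFIT1 binds viral RNA with foreign 5′ ends and hinders its translation. IFIT3 had 4.24, 4.18, 3.605 and 4.05 FPKM in hFGF19 libraries 1 to 4, against 4.43, 4.63, 4.41 and 4.77 FPKM in controls 1 to 4. It was the only one of the 29 whose hFGF19 values all lay below every control value, which is 3.45%, against 1.65% of all genes tested. None of the 29 had all 4 hFGF19 values above the controls, against 1.48% of all genes. IFIT3 averaged 4.02 ± 0.287 FPKM in hFGF19 cells and 4.56 ± 0.172 FPKM in controls (SD, n = 4 each), a log2 change of -0.15 ± 0.080 with a 95% interval of -0.33 to 0.029 (limma, unadjusted p = 0.0912, adjusted p = 0.9998). IFIT2 had 3.48, 2.71, 2.73 and 2.74 FPKM in hFGF19 libraries 1 to 4, against 3.08, 2.73, 2.67 and 4.17 FPKM in controls 1 to 4. Control 4 was the highest, and hFGF19 library 1 stood above the other hFGF19 libraries. Exons of IFIT2 overlap those of LIPA on the opposite strand, which averaged 53.5 FPKM in hFGF19 cells and 53.4 FPKM in controls, and the strand setting of the counting is not given in the sources used here. IFIT1 had 1.65, 1.799, 1.61 and 1.69 FPKM in hFGF19 libraries 1 to 4, against 1.99, 1.41, 1.67 and 1.76 FPKM in controls 1 to 4. Its hFGF19 values lay within the span of the controls. The log2 changes were -0.080 ± 0.13 for IFIT2 and -0.0096 ± 0.11 for IFIT1, and neither sign was stable. IFIT1 turned to 0.0010 in the voom fit and IFIT2 to 0.029 without control 4.

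The IFITM proteins sit in membranes and hinder the fusion of viruses with the cell. IFITM3, the most abundant gene of the set, had 236, 256, 250.04 and 255 FPKM in hFGF19 libraries 1 to 4, against 208, 236, 232 and 224 FPKM in controls 1 to 4. The lowest hFGF19 value and the highest control value, hFGF19 library 1 and control 2, overlapped by a narrow margin. IFITM3 averaged 249 ± 9.13 FPKM in hFGF19 cells and 225 ± 12.4 FPKM in controls (SD, n = 4 each), a log2 change of 0.15 ± 0.055 with a 95% interval of 0.026 to 0.27 (limma, unadjusted p = 0.0219, adjusted p = 0.9998). IFITM2 had 40.5, 44.7, 48.7 and 43.6 FPKM in hFGF19 libraries 1 to 4, against 32.7, 42.4, 45.1 and 39.4 FPKM in controls 1 to 4. Control 1 was the lowest and the rest intermingled. IFITM2 averaged 44.4 ± 3.39 FPKM in hFGF19 cells and 39.9 ± 5.31 FPKM in controls, a log2 change of 0.16 ± 0.10 that was 0.068 without control 1. Both genes were higher in hFGF19 cells in 4 of 4 pairs. IFITM1 averaged 0.326 ± 0.142 FPKM in hFGF19 cells and 0.466 ± 0.256 FPKM in controls, from 15 against 22 reads, and was not tested. The 3 genes are close paralogs and IFITM1 and IFITM2 overlap in exons on the same strand, so how the counting divided reads between them is uncertain.

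With the replicate number as a block, 4 of the 29 genes were below an unadjusted p of 0.05 in limma, which is 13.8%, against 6.88% of all genes tested in that fit. They were IFITM3 (0.00697), ISG15 (0.00823) and IFITM2 (0.0188), with higher means in hFGF19 cells, and IFI6 (0.0114), with a lower one. The smallest adjusted p among the 29 in that fit was 0.52, so none was called there either, against 0.149% of all genes. In same-numbered pairs, 3 genes were higher in hFGF19 cells in 4 of 4 (IFITM3, ISG15 and IFITM2), which is 10.3%, against 6.66% of all genes tested. Another 4 were lower in 4 of 4 (PARP9, IFI6, IFIH1 and IFIT3), which is 13.8%, against 8.5% of all genes tested. No test was made of these shares. The correlations between libraries did not single out same-numbered ones, so the block fit and the pair counts rest on an assumed pairing.

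The IFI genes are defined by their induction and have varied products. IFI27, which encodes a mitochondrial protein, had 52.1, 61.8, 65.9 and 55.9 FPKM in hFGF19 libraries 1 to 4, against 52.2, 62.5, 61.1 and 56.8 FPKM in controls 1 to 4. The groups covered the same range, with libraries 2 and 3 above 1 and 4 in each, and the log2 change was 0.016 ± 0.083. IFI6, whose small membrane protein is induced strongly by type I interferons, had 7.199, 6.404, 7.85 and 8.54 FPKM in hFGF19 libraries 1 to 4, against 9.08, 7.89, 8.33 and 10.7 FPKM in controls 1 to 4. It was lower in hFGF19 cells in each same-numbered pair, although hFGF19 library 4 exceeded controls 2 and 3. IFI6 averaged 7.497 ± 0.911 FPKM in hFGF19 cells and 9.004 ± 1.24 FPKM in controls (SD, n = 4 each), a log2 change of -0.23 ± 0.11 with a 95% interval of -0.47 to 0.0019 (limma, unadjusted p = 0.0516, adjusted p = 0.9998). Without control 4, the highest, the log2 change was -0.16. The neighbouring genes IFI44 and IFI44L are also named for their induction. IFI44 had 8.21, 9.89, 9.12 and 9.51 FPKM in hFGF19 libraries 1 to 4, against 8.19, 9.95, 9.48 and 8.35 FPKM in controls 1 to 4. IFI44L had 9.54, 10.4, 9.69 and 8.25 FPKM in hFGF19 libraries 1 to 4, against 8.12, 11.3, 10.3 and 8.83 FPKM in controls 1 to 4. In both, library 2 was the highest of its group in both groups, and the log2 changes were 0.029 ± 0.084 and -0.017 ± 0.10.

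Among the restriction factors, MX1, a dynamin-like GTPase that traps viral nucleocapsids, had the lowest estimate of the set. It had 2.31, 1.78, 1.47 and 1.99 FPKM in hFGF19 libraries 1 to 4, against 1.88, 2.72, 2.63 and 2.63 FPKM in controls 1 to 4. Control 1 stood below the other controls, at the level of the hFGF19 libraries. MX1 averaged 1.88 ± 0.353 FPKM in hFGF19 cells and 2.46 ± 0.393 FPKM in controls (SD, n = 4 each), a log2 change of -0.26 ± 0.13 with a 95% interval of -0.55 to 0.023 (limma, unadjusted p = 0.0679, adjusted p = 0.9998). The counts behind it were low, 36 to 66 reads per hFGF19 library and 46 to 73 per control. Adding 1 FPKM understates the change of a gene this low. The limma voom fit put the log2 change of MX1 at -0.37, with a 95% interval of -0.78 to 0.038. SAMD9 and its neighbour SAMD9L, which restrict poxviruses and cell growth, followed the library number. SAMD9 had 5.32, 6.74, 6.77 and 5.06 FPKM in hFGF19 libraries 1 to 4, against 5.27, 6.87, 6.82 and 4.87 FPKM in controls 1 to 4. SAMD9L had 1.18, 1.34, 1.27 and 0.986 FPKM in hFGF19 libraries 1 to 4, against 1.18, 1.41, 1.24 and 0.931 FPKM in controls 1 to 4. Libraries 2 and 3 were above libraries 1 and 4 in each group of both genes, and the log2 changes were 0.0059 ± 0.13 and 0.0028 ± 0.12.

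The remaining restriction factors were nearly silent. BST2, or tetherin, which holds budding virus at the cell surface, averaged 0.487 ± 0.368 FPKM in hFGF19 cells and 0.313 ± 0.127 FPKM in controls, from 21 against 14 reads. TRIM22, a ubiquitin ligase, had 11 against 6 reads. RSAD2, whose product viperin makes a chain-terminating nucleotide, had no read in any hFGF19 library and 3 reads in controls 1 and 4 together. CMPK2, its neighbour and a nucleotide kinase, was listed at 0 in all 8 libraries. A library with no read still allows up to 3, so a difference in RSAD2 or CMPK2 was not detectable at this depth.

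The guanylate-binding proteins attack the vacuoles of intracellular pathogens and respond chiefly to interferon gamma. GBP1 had 5.68, 4.02, 5.86 and 4.82 FPKM in hFGF19 libraries 1 to 4, against 4.64, 5.46, 3.897 and 5.18 FPKM in controls 1 to 4. GBP2 had 2.62, 2.37, 3.203 and 2.599 FPKM in hFGF19 libraries 1 to 4, against 2.19, 2.97, 1.66 and 2.37 FPKM in controls 1 to 4. In both genes the lowest value was control 3 and the groups overlapped. With all 8 libraries GBP2 had the highest estimate of the set, a log2 change of 0.17 ± 0.13 with a 95% interval of -0.12 to 0.47 (limma, unadjusted p = 0.222), and that of GBP1 was 0.070 ± 0.12. That rank rested on control 3, without which the log2 change was 0.077 for GBP2, below that of DHX58 at 0.25. For GBP2 it was 0.27 without control 2 and 0.11 without hFGF19 library 3.

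PARP9 and DTX3L form a complex of an ADP-ribosyltransferase and a ubiquitin ligase, and PARP14 is a further transferase encoded beside them. PARP9 had 17.2, 16.001, 15.9 and 16.8 FPKM in hFGF19 libraries 1 to 4, against 17.3, 17.05, 16.7 and 17.5 FPKM in controls 1 to 4. DTX3L had 30.97, 30.7, 31.8 and 30.1 FPKM in hFGF19 libraries 1 to 4, against 32.8, 32.4, 30.5 and 31.2 FPKM in controls 1 to 4. Both varied little between libraries, with an SD of 3.78% (hFGF19) and 2.06% (control) of the mean for PARP9 and 2.29% and 3.37% for DTX3L. Their exons overlap on opposite strands, so without a known strand setting their reads may be shared. PARP14 had 62.2, 76.9, 91.4 and 66.7 FPKM in hFGF19 libraries 1 to 4, against 60.7, 87.6, 73.4 and 56.99 FPKM in controls 1 to 4. It varied far more, with libraries 2 and 3 above 1 and 4 in each group, and an SD of 17.4% of the mean in hFGF19 cells and 19.9% in controls. The log2 changes were -0.053 ± 0.055, -0.035 ± 0.051 and 0.10 ± 0.15. SP110, a nuclear body protein, had 12.1, 9.78, 9.44 and 9.66 FPKM in hFGF19 libraries 1 to 4, against 13.2, 10.3, 12.6 and 9.25 FPKM in controls 1 to 4. Controls 1 and 3 and hFGF19 library 1 were the highest, and the log2 change was -0.13 ± 0.12. Its exons overlap those of SP140 on the opposite strand, at 7.45 FPKM in hFGF19 cells and 7.72 FPKM in controls.

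**Figure D3:**
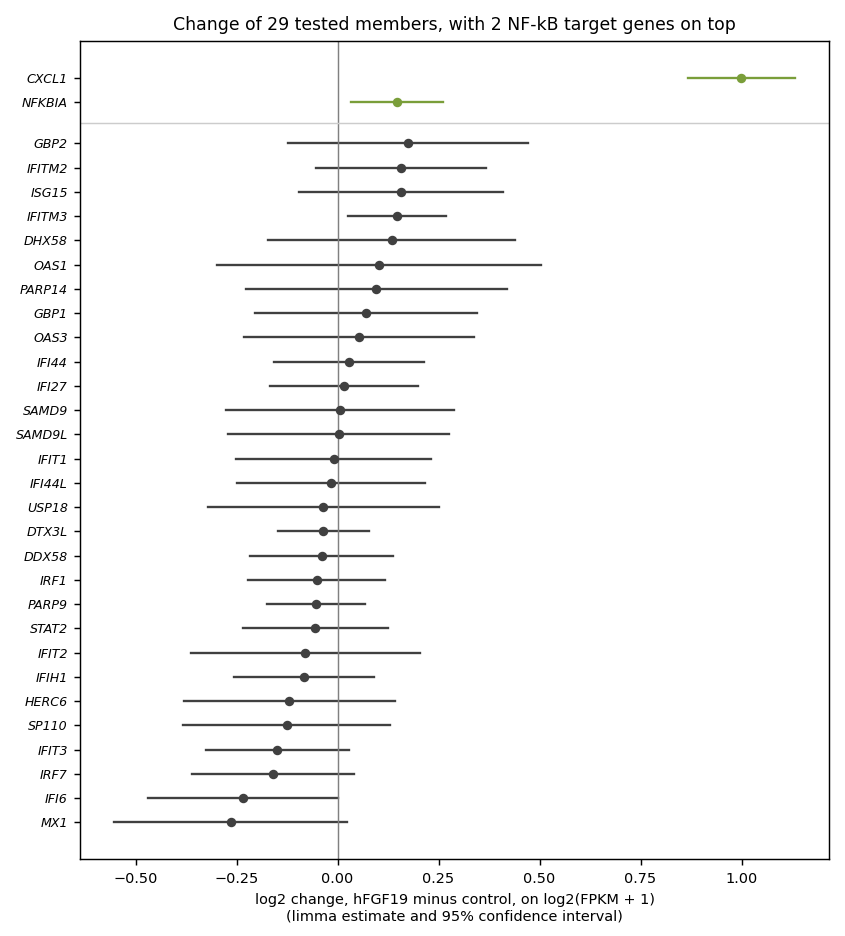
Log2 change, hFGF19 minus control, on log2(FPKM + 1) (x axis), with its 95% interval from limma (bars), for the 29 tested interferon-stimulated genes and, on top in green, 2 NF-kB target genes. CXCL1 stands at 0.9997, whereas the interferon-stimulated genes lie between -0.26 (MX1) and 0.17 (GBP2) and the interval of IFITM3 alone leaves out 0.

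A larger change was called in the same libraries. CXCL1, a chemokine gene under NF-kB control, had 632, 569, 527 and 608 FPKM in hFGF19 libraries 1 to 4, against 296, 287, 290.5 and 291 FPKM in controls 1 to 4. Every hFGF19 value was well above every control, with a log2 change of 0.9997 ± 0.060 (limma, adjusted p = 0.00011). NFKBIA, which encodes the NF-kB inhibitor IkB alpha, had 145, 146, 149.8 and 158 FPKM in hFGF19 libraries 1 to 4, against 135, 141, 137 and 128 FPKM in controls 1 to 4. All 4 of its hFGF19 values were above the controls, which held in 1.48% of all genes tested. However, its log2 change of 0.15 ± 0.051 was not called (limma, adjusted p = 0.9998). That estimate lies close to those of IFITM3, ISG15 and IFITM2.

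**Figure D4:**
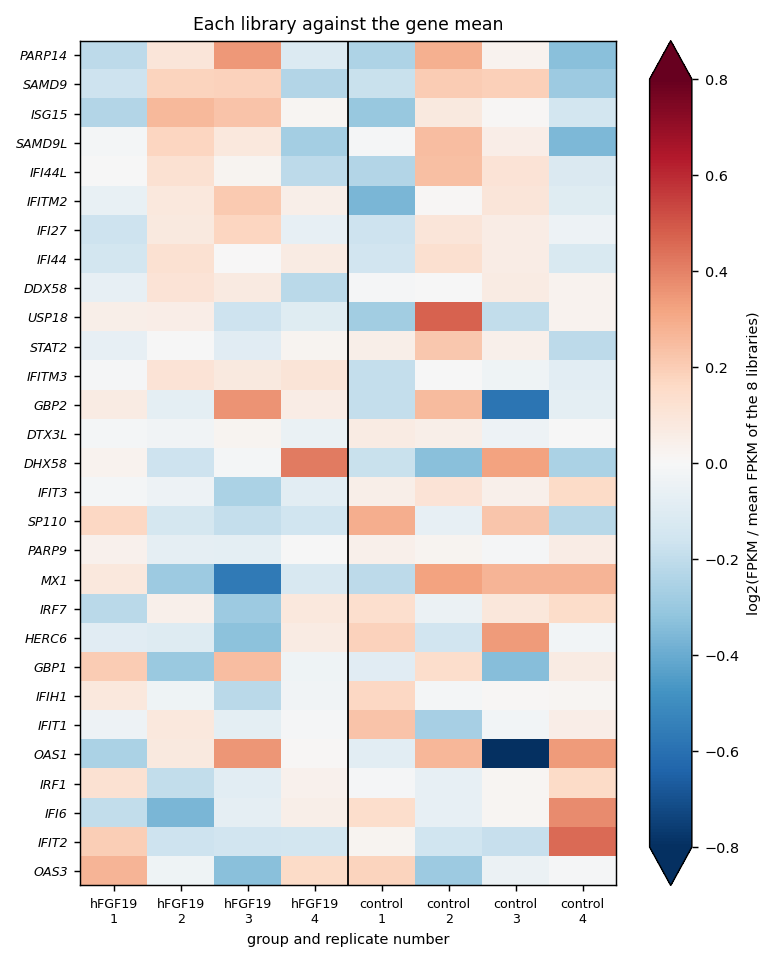
Log2 of each library's FPKM over the mean of the 8 libraries (colour, red above and blue below the mean; arrowed ends hold values beyond 0.8), for the 29 tested genes (rows) in hFGF19 libraries 1 to 4 and controls 1 to 4 (columns). PARP14, SAMD9 and ISG15 on top have higher values in libraries 2 and 3 than in 1 and 4 of each group, and OAS3 at the bottom has lower ones.

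In several genes the libraries differed by number in the same way in both groups. The labels number the libraries 1 to 4 in each group without saying what a number stands for. Libraries 2 and 3 both lay above libraries 1 and 4 in each group in 7 of the 29 genes (ISG15, PARP14, IFI27, IFITM2, IFI44L, SAMD9 and SAMD9L), which is 24.1%, beside 16.0% of all genes tested. The opposite held in 4 of the 29 genes (OAS3, PARP9, IFIH1 and IFIT2), a share below the 15.5% of all genes tested. For PARP14 the mean of libraries 2 and 3 was 84.2 FPKM and that of libraries 1 and 4 was 64.5 FPKM in hFGF19 cells, with 80.5 and 58.8 FPKM in controls. SAMD9 gave 6.76 and 5.19 FPKM in hFGF19 cells, with 6.85 and 5.07 FPKM in controls. These are descriptions with no test.

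How much of the spread was counting error depended on the read number. The SD between the 4 libraries of a group had a median of 11.1% of the mean in hFGF19 cells and 13.8% in controls over the 29 tested genes. It was below 1.5 times the counting error in 14 of the 29 genes in hFGF19 cells and in 12 in controls. PARP14, with 5115 to 6704 reads per hFGF19 library and 4443 to 6834 per control, lay far above its counting error of 1.33% and 1.36%. DTX3L, with an SD of 2.29% in hFGF19 cells, lay at its counting error of 2.31%. Reads are not independent molecules where PCR copies were kept, so these limits cover counting error only.

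**Figure D5:**
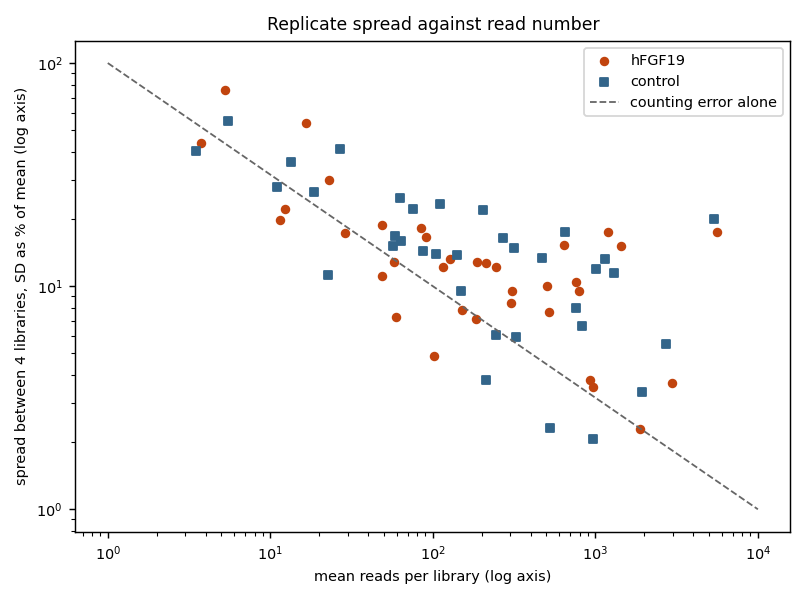
SD between the 4 libraries of a group as a percentage of the mean (y axis, log scale) against mean reads per library (x axis, log scale), for the interferon-stimulated genes that averaged 0.1 FPKM or more, in hFGF19 cells and controls. The dashed line is the error of counting alone, near which DTX3L lies and far above which PARP14, at the right edge, lies in both groups.

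The rest of the interferon system was read from 57 further genes, by role. Of these, 39 were tested and none was called by limma, by limma voom or with the replicate block, with 19 positive and 20 negative log2 changes and a median of -0.0029. The ligands were close to absent: 6 of the 10 interferon genes, IFNG among them, were listed at 0 in all 8 libraries. IFNB1, the type I interferon that most cells can make, averaged 0.151 ± 0.0908 FPKM in hFGF19 cells and 0.124 ± 0.0865 FPKM in controls, from 10 against 8 reads. IFNL1, an epithelial type III interferon, had no read in hFGF19 libraries and 4 reads in controls.

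Receptor chains were unevenly expressed. IFNAR1, the low-affinity chain of the type I receptor, averaged 45.9 ± 1.74 FPKM in hFGF19 cells and 45.2 ± 1.14 FPKM in controls. IFNAR2, the high-affinity chain, was listed at 0.282 ± 0.181 FPKM in hFGF19 cells and 0.144 ± 0.0232 FPKM in controls, from 32 against 17 reads. IL10RB, shared by type III interferons and interleukin 10, averaged 0.859 ± 0.178 FPKM in hFGF19 cells and 0.891 ± 0.143 FPKM in controls. In an annotation of another release (GENCODE 29) the exons of both IFNAR2 and IL10RB are shared with a readthrough gene, itself listed at 0, and how the counting treated shared reads is not given in the sources used here. IFNGR1, the ligand-binding chain of the interferon gamma receptor, averaged 22.5 ± 2.56 FPKM in hFGF19 cells and 22.5 ± 1.22 FPKM in controls. Its partner IFNGR2 averaged 23.99 ± 3.56 FPKM in hFGF19 cells and 22.2 ± 0.761 FPKM in controls. IFNLR1, the specific type III chain, averaged 1.19 ± 0.563 FPKM in hFGF19 cells and 0.967 ± 0.171 FPKM in controls.

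The receptor kinases were abundant in both groups, and none was called. JAK1, the kinase common to all interferon receptors, averaged 271 ± 8.04 FPKM in hFGF19 cells and 263 ± 10.7 FPKM in controls. JAK2, used by the interferon gamma receptor, averaged 41.8 ± 4.47 FPKM in hFGF19 cells and 44.3 ± 4.84 FPKM in controls. TYK2, used by the type I and type III receptors, averaged 79.5 ± 7.55 FPKM in hFGF19 cells and 80.6 ± 3.63 FPKM in controls. On the induction side, IRF3, which switches on IFNB1, averaged 50.8 ± 3.03 FPKM in hFGF19 cells and 49.3 ± 3.48 FPKM in controls. Its kinase TBK1 averaged 80.5 ± 6.74 FPKM in hFGF19 cells and 82.1 ± 2.599 FPKM in controls. MAVS, the mitochondrial adaptor of RIG-I and MDA5, averaged 20.6 ± 1.79 FPKM in hFGF19 cells and 21.3 ± 1.88 FPKM in controls. The feedback inhibitor SOCS1 averaged 2.26 ± 0.485 FPKM in hFGF19 cells and 2.27 ± 0.501 FPKM in controls. The related SOCS3, induced chiefly through STAT3, averaged 46.7 ± 2.29 FPKM in hFGF19 cells and 48.5 ± 4.84 FPKM in controls.

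UBA7 was the 1 gene of the 39 with an unadjusted p below 0.05 in limma (2.56%, against 4.23% of all genes tested), and it is named because of that value. Under the replicate block and under limma voom there were 2 of the 39, UBA7 and IKBKE, also named for its values. Over all genes tested the shares were 6.88% under the replicate block and 3.8% under limma voom. UBA7, the enzyme that activates ISG15 for conjugation, had 10.8, 9.59, 9.94 and 11.3 FPKM in hFGF19 libraries 1 to 4, against 8.45, 9.12, 9.07 and 8.95 FPKM in controls 1 to 4. All 4 hFGF19 values were above the controls, which held in 1 of the 39 (2.56%), against 1.48% of all genes tested. UBA7 had a log2 change of 0.20 ± 0.070 with a 95% interval of 0.047 to 0.36 (limma, unadjusted p = 0.0155, adjusted p = 0.9998), so it was not called. UBE2L6, the next enzyme of ISG15 conjugation, averaged 41.8 ± 4.76 FPKM in hFGF19 cells and 38.9 ± 2.92 FPKM in controls, a log2 change of 0.10 ± 0.086. IKBKE, a kinase related to TBK1, averaged 10.7 ± 1.29 FPKM in hFGF19 cells and 9.38 ± 0.281 FPKM in controls, a log2 change of 0.17 ± 0.084, with groups that overlapped and an unadjusted p of 0.0676 in limma, 0.0448 with the replicate block and 0.0481 in limma voom.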

How the data were processed

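Poly(A) RNA of 8 HCT116 samples was sequenced in paired-end libraries, per the labels' protocols. The authors deposited FPKM values, 1 per gene and sample, and HISAT2 2.0, StringTie 1.3.0 and hg19 are named without a role in the submitters' processing notes. The sources used here give no annotation, counting step or strand setting. The difference, hFGF19 minus control, came from limma (version 3.58.1, R 4.3.3) on the scale log2(FPKM + 1), using a variance trend, two-sided tests, Benjamini-Hochberg adjustment and a threshold of 0.05. The fit covered 14100 genes that averaged 1 FPKM or more. Such changes understate those of low genes. FPKM steps gave whole reads, within 0.02, for 99.996% of values above 0, and these were used for limma voom with TMM scaling. Scripts were tested on simulated data with larger changes than those of the interferon-stimulated genes, so that test does not cover changes as small as theirs. Deviations of same-numbered libraries correlated at 0.11 to 0.30 across genes (other pairs -0.45 to 0.44, median -0.17). All same-numbered values passed the 0.1 set for reading the numbers as pairs. However, hFGF19 library 3 with control 2 (0.44) and hFGF19 library 1 with control 4 (0.41) exceeded every same-numbered value. The pairing is therefore an assumption, used for the replicate block and the pair counts but not for the main fit. All 38 genes are named, tested ones with each library's value, and pathway genes from a list fixed by name. The values of another gene of that list are not reported here. The genes and lists were chosen with earlier results of these data known. Promoters came from RefSeq (GRCh38.p14), and exon overlaps from GENCODE 29.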

Additional observations from a re-analysis of the deposited data

Results flagged for a closer look

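In 4 of 88 sets of 4 libraries, 1 library stood apart from the other 3 by Dixon's 95% criterion, which compares the gap to the nearest library with the whole range, where chance gives about 4.4. IFIT2 was at 3.48 FPKM in hFGF19 library 1, against 2.71 to 2.74 FPKM in the other hFGF19 libraries. SP110 was at 12.1 FPKM in hFGF19 library 1, against 9.44 to 9.78 FPKM in the others. MX1 was at 1.88 FPKM in control 1, against 2.63 to 2.72 FPKM in the other controls. TBK1 was at 86.0 FPKM in control 4, against 80.6 to 81.1 FPKM in the others.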

How the results depend on the processing

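No interferon-stimulated gene and no other pathway gene that an alternative tested was called under any of 17 alternatives. A filter of 5 FPKM tested only 18 of the 29 and 34 of the 39, and the other settings tested all of them or more. Over these settings, the smallest adjusted p of an interferon-stimulated gene was 0.52, for IFITM3 under the replicate block. Over all genes, limma called 15, against 21 with the replicate block and 7 to 13 when 1 library was left out. The lowest of these were 7 without control 1, hFGF19 library 2 or hFGF19 library 4, 8 without control 3 and 9 without hFGF19 library 1. The median log2 change of the interferon-stimulated genes was -0.017 with the replicate block and ranged from -0.040 (without control 1) to 0.0095 (without hFGF19 library 4). The sign of the estimate changed under some alternative in 15 genes, all with a log2 change of at most 0.10 in size, and in none of the other 14. Genes of few reads had wide intervals, such as OAS1.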
